A study of Mus musculus with 6 samples.

Results

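The genes described here lie on mouse chromosome 1 and were picked by name, with an earlier comparison of these arrays in view, because many of them read lower in one of the cell lines than in the other. The list holds 53 genes, and a probe of a listed gene was used where it was detected (detection p-value under 0.05) on all 6 arrays. This left 81 of the 120 probes of these genes, on 44 genes, out of 14320 probes on 10038 genes that were detected on all 6 arrays. The cells were mouse induced pluripotent stem (iPS) cells of 2 lines, Nac1 null clone #5 and Nac1 null clone #7, both lacking Nac1. Human NAC1 (hNAC1) was returned to the cells of each line, and total RNA of days 0, 2 and 5 of this rescue was hybridised to bead arrays, with 1 array per line and day. Each line is a single clone with 1 array a day, so a difference between the lines cannot be told apart from a difference between any pair of clones.

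Most genes of an autosome are transcribed from both of its copies, and RNA levels tend to follow the number of copies of a gene. Cultured pluripotent cells can gain or lose a whole chromosome, and a line that differs from another in this way shows a small shift of the same sign in many genes of that chromosome. The listed genes were picked by chromosome and not by pathway. They are described below as genes of 1 chromosome, of which they are not a random sample. The number of copies of chromosome 1 was not measured on these arrays, so the reading as gene dosage was not tested.

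All values are log2 signals after background correction and quantile normalisation, and a clone difference is the log2 signal of clone 7 minus that of clone 5 on the same day. Because the genes were chosen on this difference, it is given as a description without a test. Where a gene has several probes, a value, an overlap or a rank given for the gene is that of its probe with the highest mean signal, and other probes are named as such. Errors of a clone difference are the SD over the 3 days (n = 3 pairs of arrays). In bulk RNA, fewer cells of a type and less RNA per cell cannot be told apart. Per array, 16739 to 18150 probes were detected, and the median deposited signal was 93.4 to 95.9. Of 3 probes of mouse Nacc1, the deleted gene, 2 were detected on all 6 arrays, at log2 signals of 6.01 to 6.39 and 6.87 to 7.34. No source used here says where these probes lie relative to the deletion, so they do not check the labels. All 8 pluripotent stem cell markers, among them Pou5f1, Nanog and Sox2, were detected on all 6 arrays. Each of these 8 had a lower mean log2 signal in clone 7, where 48.3% of all detected probes were lower on average. The gap was widest for Nanog (11.76 in clone 5 and 11.34 in clone 7) and Sox2 (8.78 and 8.52). It was small for others, such as Pou5f1 (11.79 and 11.71), and smallest for Tdgf1 (8.28 and 8.26). The summed signal of the 8 markers was 34090 to 38044 in clone 5 and 31141 to 34310 in clone 7, and its part in the clone difference was not tested. Of 8 fibroblast markers, 1 (Thy1) was detected on all 6 arrays and 5, among them Col1a1, Col1a2 and Col3a1, on none. Thy1 had a mean log2 signal of 7.67 in clone 5 and 6.18 in clone 7. The summed signal of the fibroblast list was 133 to 452 in clone 5 and 45.1 to 244 in clone 7, and its part in the clone difference was not tested.

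The listed genes read lower in clone 7 on each day. Their 81 probes had a median clone difference of -0.43 on day 0, -0.46 on day 2 and -0.45 on day 5. Of these probes, 72, 79 and 74 were below 0 on the 3 days (88.9%, 97.5% and 91.4%). The shares were 84.0%, 87.5% and 87.4% of the other chromosome 1 probes and 50.4%, 48.0% and 49.6% of all probes. For the listed probes the mean over days had a median of -0.42 ± 0.02 (SD of the medians of the 3 days). This is 74.5% of the clone 5 signal, and the interquartile span was from -0.58 to -0.32. Below 0 on all 3 days were 66 of the 81 probes, where 16.2% of all 14320 probes were. For 49 probes every clone 7 array lay below every clone 5 array, where 5.68% of all probes did. No listed probe had every clone 7 array above every clone 5 array, against 4.87% of all probes. The list was chosen on these values, so the counts describe it and do not support it.

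**Figure D1:**
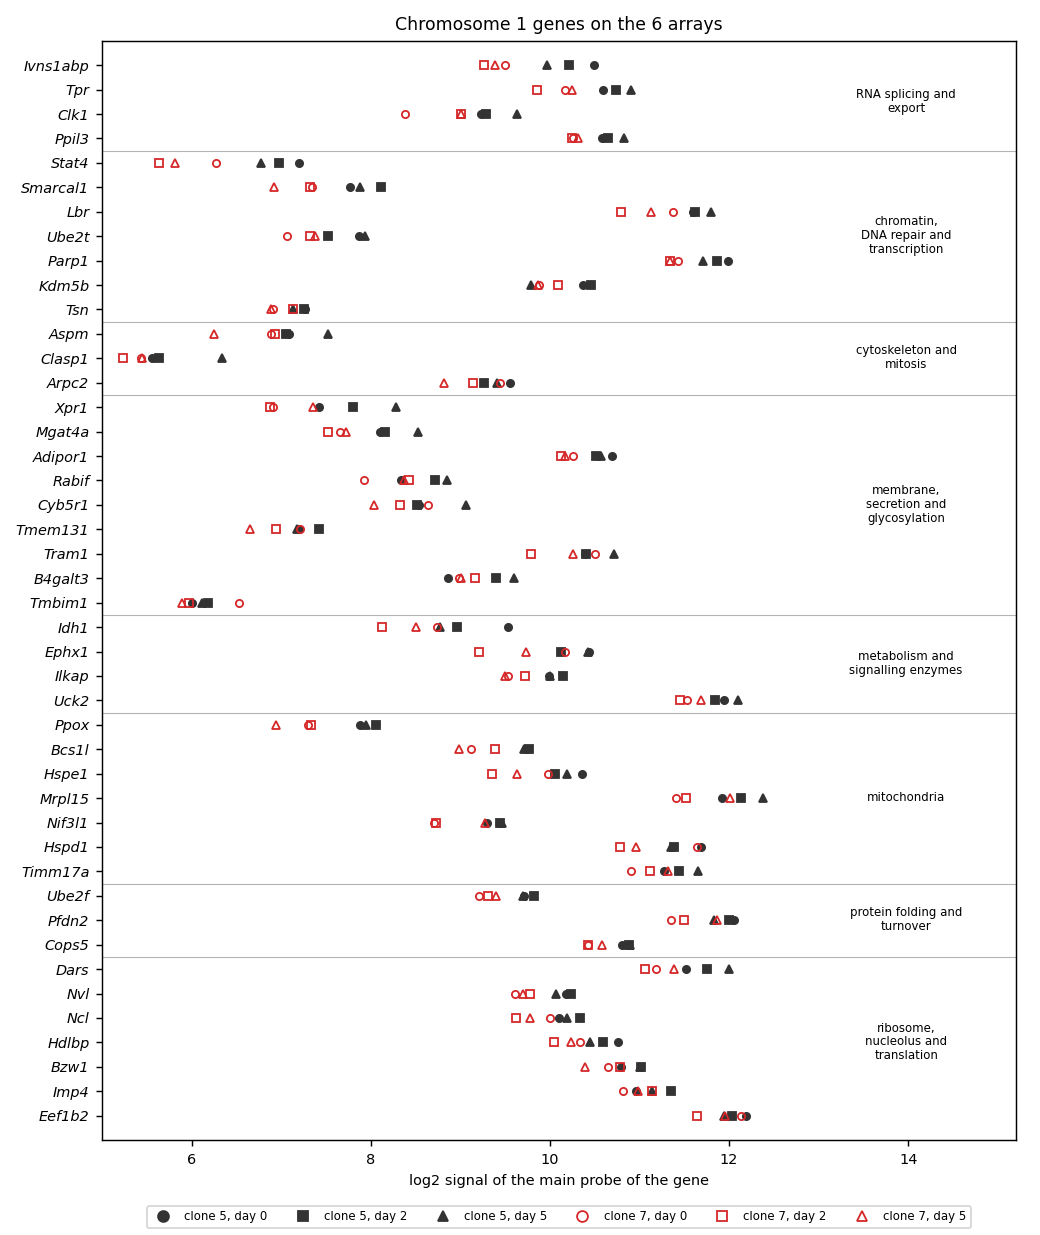
Log2 signal (x axis) of the probe with the highest mean for each of the 44 listed genes, grouped by role. Filled black symbols are clone 5 and open red symbols clone 7, with a circle, square and triangle for days 0, 2 and 5. In most rows the red symbols lie to the left, and in 28 of the 44 rows all 3 lie left of all 3 black ones.

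The promoter shared by Hspd1 and Hspe1 is shown because these neighbours were the only pair found among the 45 listed genes with promoter windows. The search asked for overlapping windows of neighbours read away from each other, and other overlaps were not looked for. The clone difference of this pair can thus be set against 1 stretch of DNA read both ways. Hspd1 and Hspe1 encode the chaperonin of the mitochondrial matrix and its co-chaperonin. The bases between an annotated start of Hspd1, read to the left, and that of Hspe1, read to the right, are given from RefSeq (GRCm38.p6, chr1:55087933-55088147, plus strand), with motif matches in capitals:
Hspd1 to Hspe1: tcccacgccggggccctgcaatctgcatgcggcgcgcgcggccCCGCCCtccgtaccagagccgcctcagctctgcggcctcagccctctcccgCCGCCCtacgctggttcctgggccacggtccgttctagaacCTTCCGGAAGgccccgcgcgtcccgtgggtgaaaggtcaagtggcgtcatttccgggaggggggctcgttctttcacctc
This stretch of 215 bases holds 24 CpG and 70.2% G or C. The capitals mark GGGCGG, found 2 times in reverse as CCGCCC, and CCGGAAG, found once on each strand in overlapping positions. RefSeq also gives Hspd1 a start to the right of this stretch, so the shared form is 1 of its annotated promoters.

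Hspe1 read 10.36, 10.06 and 10.19 in clone 5 on days 0, 2 and 5, and 9.98, 9.35 and 9.63 in clone 7. All clone 7 arrays lay below all clone 5 arrays, with a mean clone difference of -0.55 ± 0.16. Hspd1 read 11.68, 11.39 and 11.35 in clone 5 and 11.64, 10.78 and 10.96 in clone 7 by its probe with the highest signal. The clones nearly met on day 0 (-0.04) and stood apart on day 2 (-0.60) and day 5 (-0.39), while the second Hspd1 probe had a mean difference of -0.88. The partners on both sides of this promoter were thus lower in clone 7 on each day, by differing amounts.

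RefSeq promoter windows, from 250 bases before to 50 after the start, were found for 45 of the 53 genes. The 48 windows of listed genes that were detected had a median of 22 CpG, against 21 both in 413 windows of other detected chromosome 1 genes and in 8452 windows of detected genes elsewhere. Searched on both strands, GGGCGG was in 79.2% of the listed windows, 61.7% of the other chromosome 1 windows and 65.1% of those elsewhere. CCAAT was in 52.1%, 37.5% and 38.3% and TATAAA in 2.08%, 6.54% and 6.89%. The E-box CACGTG was in 12.5%, 9.69% and 10.4%, CCGGAAG in 22.9%, 14.0% and 19.4%, and the palindromic NRF1 motif in 2.08%, 1.45% and 2.18%. Over all 32851 windows of the table, expressed or not, the shares were 35.7% for GGGCGG, 37.4% for CCAAT, 13.6% for TATAAA, 7.15% for CACGTG, 8.86% for CCGGAAG and 0.971% for the NRF1 motif. These shares were not tested, and a match is a run of letters, not a bound site.

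Among mitochondrial genes, 7 of 8 were measured and 13 of their 14 probes were below 0 on all 3 days, with a median of -0.55. In this and the next role groups, such counts stand beside 68.7% of other chromosome 1 probes and 16.2% of all probes. Ppox, which encodes protoporphyrinogen oxidase of haem synthesis, read 7.88, 8.06 and 7.94 in clone 5 and 7.30, 7.34 and 6.94 in clone 7. Bcs1l, which encodes an assembly factor of respiratory complex III, read 9.74, 9.76 and 9.71 against 9.12, 9.39 and 8.98. Neither gene overlapped between the clones, with differences of -0.77 ± 0.21 and -0.58 ± 0.18. Timm17a, a subunit gene of the inner membrane translocase, was nearest to 0 at -0.34 ± 0.02, with 11.27, 11.44 and 11.65 in clone 5 and 10.91, 11.12 and 11.32 in clone 7. Its gap was nearly the same on each day although both clones read higher on later days, so that the groups overlapped. Nif3l1, which lies beside Ppil3, had -0.50 ± 0.27. Mrpl15, a mitochondrial ribosome gene, was at -0.50 ± 0.12 by the probe used.

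Of genes for RNA splicing and export, 4 of 5 were measured. All 7 of their probes read lower in clone 7 on every day without overlap, with a median of -0.66. Without overlap in this direction were 39.9% of other chromosome 1 probes and 5.68% of all probes. Ivns1abp, named for its binding of the influenza NS1 protein, read 10.50, 10.22 and 9.97 in clone 5 and 9.49, 9.27 and 9.39 in clone 7 (-0.85 ± 0.23). Its other probes were lower still, at -1.06 and -1.10. Tpr, which encodes a protein of the nuclear pore basket, read 10.59, 10.74 and 10.90 against 10.16, 9.85 and 10.24 (-0.66 ± 0.23). Ppil3, a cyclophilin gene, was nearest to 0 in this group at -0.42 ± 0.10, with 10.58, 10.64 and 10.83 in clone 5 and 10.25, 10.24 and 10.31 in clone 7. Even this gene kept every clone 7 array below every clone 5 array. The splicing kinase gene Clk1, a neighbour of Ppil3, was at -0.58 ± 0.29. The second Clk1 probe (-0.42 ± 0.37) was free of overlap only by a narrow margin, with -0.0052 on day 2.

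Chromatin, DNA repair and transcription genes had 7 of 10 members measured, and 10 of their 12 probes were below 0 on all 3 days (median -0.51). Stat4, which encodes a transcription factor of interleukin-12 signalling, had the lowest difference of the 44 genes at -1.07 ± 0.23. It read 7.20, 6.97 and 6.78 in clone 5 and 6.27, 5.63 and 5.82 in clone 7, so the clones stood well apart. Without background correction its mean difference was -0.57, with an offset of 50 -0.77, and with the authors' series values -1.35. Uncorrected and with that offset, Ivns1abp was lower than Stat4, at -0.78 and -0.81. Of 4 Stat4 probes, 1 was detected on all 6 arrays. Smarcal1, whose helicase remodels stalled replication forks, read 7.77, 8.12 and 7.88 against 7.34, 7.32 and 6.92 (-0.73 ± 0.27). Tsn, which encodes translin, a nucleic acid binding protein, read 7.27, 7.25 and 7.13 against 6.90, 7.14 and 6.89, and here 1 clone 7 array reached into the range of clone 5 (mean -0.24 ± 0.12, and -0.15 without background correction). The 3 probes of Parp1, the gene of a DNA damage sensor, lay between -0.83 and -0.49. Those of the histone demethylase gene Kdm5b lay between -0.45 and -0.09. On day 5 its probe with the highest signal was 0.09 higher in clone 7, and its probe with the lowest signal 0.35 higher. Lbr, which encodes the lamin B receptor, was at -0.58 ± 0.31 and the ubiquitin-conjugating enzyme gene Ube2t at -0.52 ± 0.31.

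In the ribosome, nucleolus and translation group, 7 of 10 genes were measured, and 13 of 16 probes were below 0 on all 3 days with a median of -0.31. Dars, which encodes aspartyl-tRNA synthetase, read 11.52, 11.76 and 12.00 in clone 5 and 11.18, 11.06 and 11.38 in clone 7 (-0.55 ± 0.19). Nvl, whose AAA ATPase acts in ribosome assembly, read 10.18, 10.23 and 10.07 against 9.61, 9.78 and 9.70 (-0.47 ± 0.10). The elongation factor subunit gene Eef1b2 read 12.18, 12.03 and 11.94 against 12.14, 11.64 and 11.96. Dars and Nvl did not overlap between the clones by these probes, while the Eef1b2 probe with the highest signal had -0.05, -0.39 and 0.02 on the 3 days and averaged -0.14 ± 0.22. The other Eef1b2 probes averaged -0.31 ± 0.29 and -0.16 ± 0.07, with -0.34 and -0.10 on day 0, and also overlapped. The nucleolin gene Ncl was at -0.41 ± 0.31 (-0.26 without the day 2 arrays) and at -0.16 ± 0.06 by its second probe. Bzw1 was at -0.33 ± 0.25 (-0.18 without the day 5 arrays), Hdlbp at -0.40 ± 0.17 and Imp4, a gene of the small subunit processome, at -0.17 ± 0.04.

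For membrane, secretion and glycosylation genes, all 9 were measured, and the clone difference was smaller on day 0 than later. Of 14 probes, 9 were below 0 on day 0 and 14 on each of days 2 and 5, with medians of -0.05, -0.43 and -0.67. Below 0 on these days were 84.0%, 87.5% and 87.4% of other chromosome 1 probes and 50.4%, 48.0% and 49.6% of all probes. Xpr1, which encodes a phosphate exporter, read 7.43, 7.81 and 8.28 in clone 5 and 6.91, 6.88 and 7.36 in clone 7 (-0.79 ± 0.24). Mgat4a, an N-glycan branching enzyme gene, read 8.10, 8.16 and 8.52 against 7.66, 7.52 and 7.72 (-0.63 ± 0.18). Both stayed apart on all arrays. Tmbim1 was the 1 gene of the 44 above 0 on average (0.03 ± 0.43), with 6.00, 6.19 and 6.12 in clone 5 and 6.53, 5.97 and 5.89 in clone 7, higher in clone 7 on day 0 and lower afterwards. Its mean was -0.23 without the day 0 arrays and -0.05 with median scaling. The reductase gene Cyb5r1 moved from 0.10 on day 0 to -1.03 on day 5, Tram1, a gene of protein translocation into the endoplasmic reticulum, had 0.10, -0.61 and -0.47, and the galactosyltransferase gene B4galt3 had 0.11, -0.24 and -0.60. Adipor1, the gene of an adiponectin receptor, was steady at -0.41 ± 0.02, Rabif was at -0.39 ± 0.10 and Tmem131 at -0.33 ± 0.30 (-0.21 without background correction, -0.50 without the day 0 arrays). No test of a change of the clone difference over days is possible with 1 array per clone and day.

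The cytoskeleton and mitosis genes also differed most on day 5, where the median of their 3 probes was -0.89, against -0.12 on days 0 and 2. Aspm, which encodes a spindle pole protein, read 7.08, 7.06 and 7.52 in clone 5 and 6.89, 6.93 and 6.25 in clone 7 (-0.53 ± 0.64). Clasp1, a gene of microtubule plus ends, read 5.56, 5.64 and 6.34 against 5.44, 5.24 and 5.45 (-0.47 ± 0.39). Arpc2, a subunit gene of the actin-nucleating Arp2/3 complex, read 9.55, 9.26 and 9.41 against 9.45, 9.14 and 8.82, with overlap. The SDs of these 3 genes, up to 0.64, exceeded the size of the mean for Aspm and Arpc2 (-0.27 ± 0.28). Without the day 5 arrays the means were -0.16 for Aspm, -0.26 for Clasp1 and -0.11 for Arpc2, and without background correction -0.32 for Aspm and -0.20 for Clasp1.

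Metabolism and signalling enzymes had 4 of 5 genes measured and 6 of 7 probes below 0 on all 3 days, with a median of -0.46. Idh1, the gene of cytosolic isocitrate dehydrogenase, read 9.53, 8.97 and 8.77 in clone 5 and 8.74, 8.12 and 8.51 in clone 7 (-0.64 ± 0.32). Ephx1, which encodes microsomal epoxide hydrolase, read 10.43, 10.12 and 10.42 against 10.17, 9.21 and 9.74 (-0.62 ± 0.33). The Uck2 gene of a uridine-cytidine kinase read 11.95, 11.84 and 12.10 against 11.53, 11.46 and 11.69. By this probe Uck2 stayed apart on all arrays at -0.40 ± 0.02, as did the phosphatase gene Ilkap at -0.46 ± 0.04 and, by a narrow margin, Idh1. The 4 Uck2 probes disagreed, since 1 of similar signal read 0.36, -0.31 and -0.59 on the 3 days with overlap (-0.18 ± 0.49). The other Uck2 probes were at -0.58 ± 0.15, without overlap, and at -0.41 ± 0.17, with overlap. Ephx1 overlapped through day 0 of clone 7.

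All 3 genes of protein folding and turnover were measured, with 5 of 8 probes below 0 on all 3 days and a median of -0.39. Ube2f, which encodes a NEDD8-conjugating enzyme, read 9.71, 9.83 and 9.69 in clone 5 and 9.21, 9.30 and 9.40 in clone 7 (-0.44 ± 0.13). Cops5, the gene of the catalytic subunit of the COP9 signalosome, read 10.80, 10.89 and 10.89 against 10.42, 10.42 and 10.58 (-0.39 ± 0.07). The prefoldin subunit gene Pfdn2 read 12.05, 12.00 and 11.83 against 11.36, 11.50 and 11.86. By these probes Ube2f and Cops5 did not overlap, and Pfdn2 lost its gap by day 5 (0.03 on that day). Of the 4 Ube2f probes, 1 overlapped and had 0.03 on day 5 (-0.28 ± 0.27), and of the 3 Cops5 probes, the 1 with the lowest signal overlapped.

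Probes of the same gene mostly shared the sign. Of 21 genes with several probes detected on all arrays (58 probes), 18 had every probe below 0. The exceptions were Cops5, Nvl and Mrpl15. Below 0 on average were 93.8% of the 81 listed probes, 92.7% of all chromosome 1 probes and 48.3% of all probes. The genes were chosen on this difference, so a sign shared by probes of a gene describes the list and does not support it. Of the 3 Cops5 probes, the 1 above 0 (0.08) had a mean log2 signal of 5.06, against 10.63 for the lowest. Nvl had 2 probes above 0 (0.09 and 0.05) at signals of 6.09 and 5.45, against 9.93 for the probe at -0.47. Mrpl15 had 6 of 7 probes below 0, from -0.89 to -0.44, and 1 at 0.18 with a signal of 5.28. All 4 probes above 0 on these genes thus had low signals. Just inside the detection threshold, the Mrpl15 probe at 0.18 and the Cops5 probe at 0.08 had highest detection p-values of 0.0107. Just outside it, a second Ppox probe with a highest p-value of 0.0609 read -0.53, -0.16 and -0.24 on the 3 days.

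Of the other listed genes, Lipt1 was detected on 5 arrays, Sf3b1 on 4 and Creb1 on 1 by their most often detected probe. Xrcc5, Glul and Rrs1 were detected on 0 arrays. Xrcc5 encodes a DNA end-binding protein, Glul glutamine synthetase and Rrs1 a ribosome assembly factor. Ddx18, Ptma and Rpl7 were not analysed here. The clone difference of these 9 genes is not described.

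Signal level was set against the clone difference over the whole chromosome, since the listed genes had a higher median log2 signal (9.17) than the other chromosome 1 probes (7.41). When all detected probes were divided into 4 classes of equal size by mean signal, the 675 chromosome 1 probes had medians of -0.22, -0.36, -0.49 and -0.41 from class 1 (lowest signal) to class 4 (highest). The 12200 probes of other chromosomes had 0.02, 0.02, 0.02 and 0.01. Listed and other chromosome 1 probes lay close in class 4 (-0.42 for 47 and -0.41 for 145 probes) and in class 3 (-0.47 for 19 and -0.49 for 162). In class 2 they were at -0.43 and -0.36. In class 1 the 5 listed probes, of Mrpl15, Cops5, Nvl and Clasp1, were at 0.05 and the 125 others at -0.22. For scale only, a ratio of 2 to 3 is -0.58 on the log2 scale, and the median of each class was nearer to 0 than that.

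**Figure D2:**
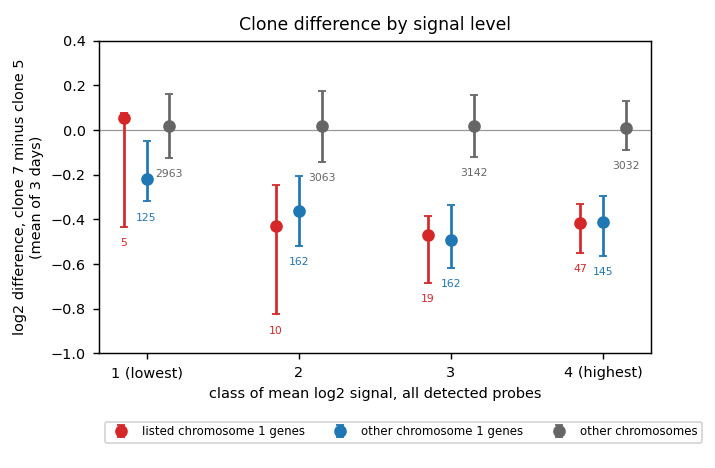
Clone difference (y axis, log2, mean of 3 days) by class of mean log2 signal over all detected probes (x axis, 4 classes of equal size). Points are medians, bars are interquartile spans, and the numbers are probes. Other chromosomes stay near 0 in each class, and other chromosome 1 probes go from -0.22 in class 1 to -0.49 in class 3.

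The remaining genes of the chromosome, taken from the annotation without regard to their values, had medians of the same sign as the listed genes. The listed genes were picked because of this shift of the chromosome, so it is no independent support for them. The other 594 detected chromosome 1 probes (389 genes) had medians of -0.32, -0.40 and -0.40 on days 0, 2 and 5 and a median of the mean of -0.37 ± 0.05, or 77.3% of the clone 5 signal. Of these, 408 were below 0 on all 3 days (68.7%) and 237 did not overlap between the clones (39.9%), where the shares over all probes were 16.2% and 5.68%. The 19 other chromosomes, X included, had medians between -0.06 and 0.06 on every day, and 12.1% to 18.1% of their probes were below 0 on all 3 days. The spread was alike, with an interquartile range of the mean difference of 0.31 on chromosome 1 and 0.24 to 0.35 on the other chromosomes. Chromosome 1 holds 4.71% of the detected probes. It held 286 of the 813 probes with all clone 7 arrays lower (35.2%), which are 42.4% of its own probes, and 0 of the 698 with all clone 7 arrays higher.

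**Figure D3:**
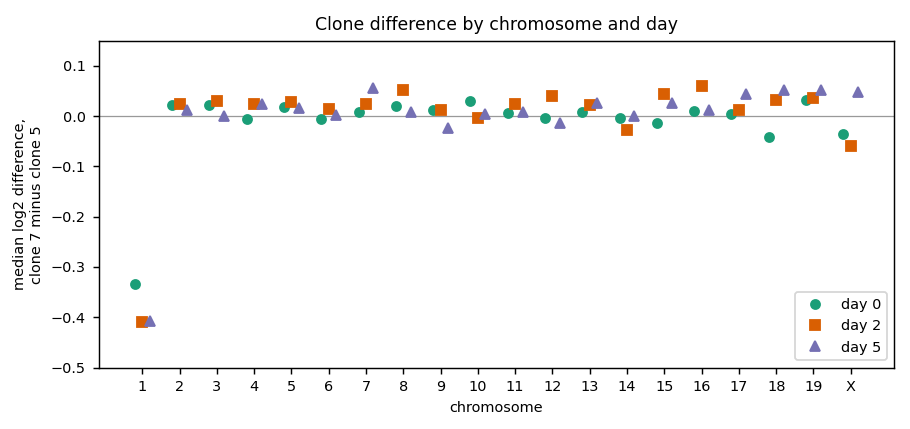
Median clone difference (y axis, log2) of the detected probes of each chromosome (x axis) on days 0, 2 and 5. Chromosome 1 lies at -0.33, -0.41 and -0.41, and the others lie between -0.06 and 0.06.

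The difference ran along the whole chromosome. With 1 probe per gene, 433 chromosome 1 genes were put in their order along the chromosome and divided into 10 stretches of 43 or 44 genes. The stretches had medians from -0.43 to -0.32, and in each of them 86.4% to 97.7% of the genes were below 0. The order began with the listed gene Mrpl15, and each stretch held 2 to 9 listed genes. Not below 0 on average were 35 genes, none above 0.5, and 7 genes, Stat4 among them, were below -1.

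**Figure D4:**
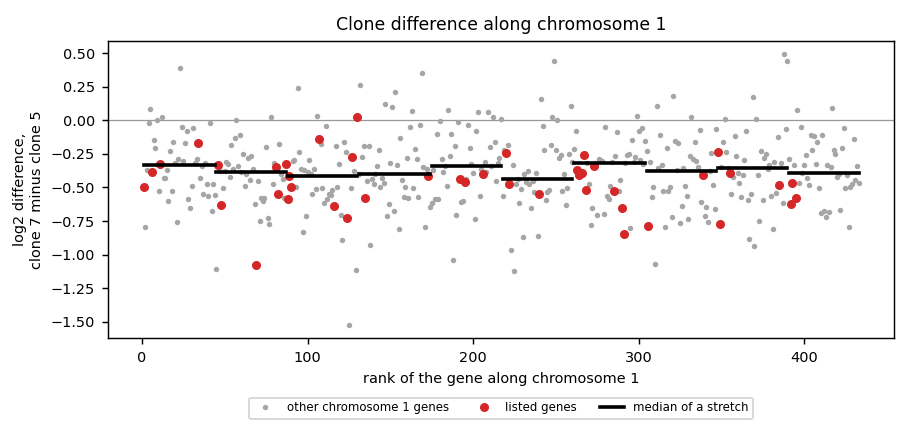
Clone difference (y axis, log2, mean of 3 days) of 433 chromosome 1 genes by their rank along the chromosome (x axis). Red points are the listed genes, grey points the others, and black lines the medians of the 10 stretches, which all lie between -0.43 and -0.32.

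Array by array, chromosome 1 probes gave 4.92%, 4.99% and 5.04% of the summed background-corrected signal of the detected probes in clone 5 on days 0, 2 and 5. In clone 7 they gave 3.97%, 3.59% and 3.77%. The listed genes alone gave 1.10%, 1.09% and 1.13% in clone 5 and 0.853%, 0.761% and 0.856% in clone 7. No clone 7 array reached the range of clone 5. Across the 81 listed probes, the differences of day 0 and day 2 correlated at a Pearson r of 0.56, those of days 2 and 5 at 0.45 and those of days 0 and 5 at 0.23. In the same order, all 675 chromosome 1 probes had 0.40, 0.34 and 0.04, and other chromosomes 0.32, 0.32 and -0.13. These pairs of days share probes and normalisation but no array, and probes are not independent replicates.

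Changes between days were compared within clones, which does not use the contrast the genes were chosen on. No listed gene changed by the limma test at an adjusted p of 0.05 over all 14320 probes. From day 0 to day 5, 0 of 81 listed probes passed, and 2.82% of all probes did (404 probes, 199 higher and 205 lower). The lowest adjusted p among the listed probes was 0.0928 by limma, and 14 were at an unadjusted p under 0.05, 17.3% against 19.7% of all probes. On chromosome 1 as a whole, 10 probes rose and 11 fell, which is 3.11% of its 675 probes. From day 0 to day 2, 0 listed probes passed, as did 0% of all probes. At an unadjusted limma p under 0.05 were 12 listed probes (14.8%) and 2025 of all probes (14.1%). From day 2 to day 5, 0 listed probes passed against 0.412% of all probes (59 probes). Here 5 listed probes (6.17%) were at an unadjusted limma p under 0.05, against 16.2% of all probes. The authors' deposited table of probes that changed between days holds 698 probes, out of 45281 on the arrays. Of the 698, 20 are of chromosome 1, which holds 4.71% of the detected probes, and 0 of a listed gene. The 698 are a small part of all probes, so this 0 says little about the 120 probes of the listed genes.

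The ranks that follow use the probe with the highest signal of each gene. Among the 44 listed genes, Xpr1 had the highest value on day 5 against day 0, at 0.65 ± 0.18 (SE, limma adjusted p = 0.117), with 0.85 in clone 5 and 0.45 in clone 7. Mrpl15 followed with 0.53 ± 0.17 and Clk1 with 0.51 ± 0.19. The lowest were Hspd1 (-0.51 ± 0.19), Idh1 (-0.49 ± 0.20) and Stat4 (-0.44 ± 0.18). Over all 81 probes the lowest were the second Hspd1 probe (-0.87 ± 0.22), an Mrpl15 probe of lower signal (-0.60 ± 0.19), opposite in sign to the Mrpl15 value above, and a second Kdm5b probe (-0.55 ± 0.17). From day 0 to day 2 the lowest were Ephx1 (-0.64 ± 0.20), Idh1 (-0.59 ± 0.20) and Hspd1 (-0.58 ± 0.19), and the highest Rabif (0.44 ± 0.17), Imp4 (0.36 ± 0.16) and B4galt3 (0.36 ± 0.21). Over all probes the second Hspd1 probe was lowest (-1.07 ± 0.22), a second Lbr probe was at -0.63 ± 0.17, and a second B4galt3 probe was highest (0.45 ± 0.22). From day 2 to day 5, Xpr1 (0.48 ± 0.18), Clasp1 (0.46 ± 0.22) and Ephx1 (0.41 ± 0.20) were highest, and Kdm5b (-0.45 ± 0.20), Smarcal1 (-0.32 ± 0.19) and Tmem131 (-0.27 ± 0.20) lowest. Over all probes the second Lbr probe was highest (0.50 ± 0.17) and the other Kdm5b probes lowest (-0.54 ± 0.17 and -0.53 ± 0.22). Each of the 18 values by the probe with the highest signal had the same sign in both clones, and none passed the limma test (adjusted p from 0.117 to 0.546). They were picked as the highest and lowest averages over both clones, which favours a shared sign. Other listed genes could differ, as Aspm did from day 0 to day 5 (0.44 in clone 5 and -0.64 in clone 7).

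**Figure D5:**
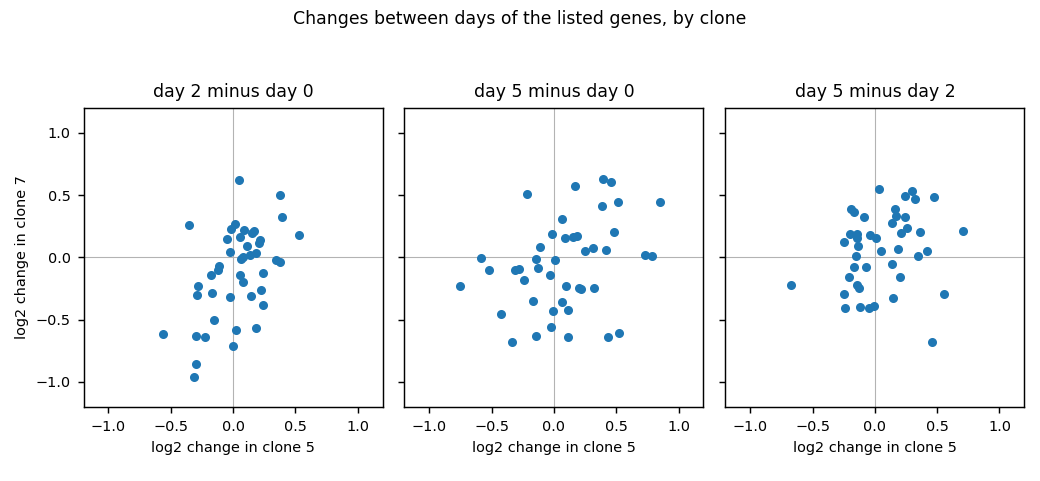
Log2 change between days of the 44 listed genes in clone 5 (x axis) and clone 7 (y axis), with 1 panel per pair of days. Changes span -0.96 to 0.85, the panels share arrays, and no gene passed the limma test in any of them.

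The median change of all chromosome 1 probes stayed small within each clone. From day 0 to day 2 it was 0.01 in clone 5 and -0.06 in clone 7, from day 0 to day 5 it was 0.0030 and -0.07, and from day 2 to day 5 -0.0008 and 0.0088. The median clone difference over the same probes was -0.38. For the listed probes the same medians were 0.02 and -0.08, 0.03 and -0.01, and 0.03 and 0.14.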

How the data were processed

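Gene expression was measured on 6 bead arrays of 1 chip, 1 per clone and day. Per the file headers, the deposited probe table gives the average bead signal of 45281 probes as an intensity, and a detection p-value of each probe, also deposited. The lowest intensities are far above 0, so they were treated as not background-subtracted. The deposited series values are log2 values that the authors normalised, with empty cells. The authors' deposited fold change table gives log2 differences of selected probes. Which software made these files: not given in the sources used here.

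Background was removed from the intensities in limma 3.58.1 (R 4.3.3) by a normexp fit that uses detection p-values, with an offset of 16, and log2 values were taken after quantile normalisation. Symbols were matched to a RefSeq table of GRCm38.p6 (35777 probes, 8037 through a synonym), which gave each gene's chromosome. Probes detected at p under 0.05 on all 6 arrays were kept. A model with day and clone was fitted with lmFit and eBayes (2 residual and 5.33 prior degrees of freedom) and p-values adjusted by Benjamini-Hochberg over all 14320 probes. Clone enters as the pairing because the same 2 lines were sampled on each day; across probes, deviations from the day means correlated at 0.36 (days 0 and 2), -0.09 (days 0 and 5) and 0.35 (days 2 and 5). P-values rest on how far the day changes of the 2 clones differ, with the spread of each probe shrunk towards that of the others. No clone has a second array on a day, and the number of arrays limits the precision. The fit was tested on simulated data.

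The genes, their role groups, the named genes (in each role the lowest pair and the gene nearest 0; between days the 3 highest and 3 lowest) and the motifs were chosen with earlier results of these data known. Other genes are given by their means. Alternatives were an offset of 50, uncorrected background, scaling to the median, other detection rules, 1 probe per gene, the series values, no replicate block, trended and robust shrinkage, and leaving out arrays. Figures were drawn with matplotlib 3.10.9.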

Additional observations from a re-analysis of the deposited data

Results flagged for a closer look

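Cyb5r1, a reductase gene of the membrane group, changed in opposite directions in the clones from day 0 to day 5, by 0.53 in clone 5 and by -0.60 in clone 7 on the log2 scale. It was the 1 listed gene, by the probe with the highest signal and in any pair of days, whose clones moved in opposite directions by at least 0.5 each. Each value rests on a pair of single arrays, and the difference between them was not tested.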

How the results depend on the processing

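The listed genes and chromosome 1 stayed lower in clone 7 under each alternative run. Against medians of -0.42 (listed) and -0.38 (chromosome 1), values were -0.38 and -0.26 without background correction, -0.40 and -0.32 with an offset of 50, -0.49 and -0.44 with median scaling and -0.46 and -0.45 with the series values. With 1 probe per gene the listed genes were at -0.45. Without the detection filter they were at -0.34 (120 probes) and chromosome 1 at -0.0482 (2189 probes), most of which were not detected on all arrays. Leaving out each day gave -0.45 to -0.44 and -0.42 to -0.37. Median scaling moved the median of all probes on day 5 to -0.14; relative to other chromosomes, chromosome 1 was then at -0.42 on that day, and at -0.43 with quantile normalisation. Of 440 values of single listed genes, 431 moved by less than their SD over days and 9 by more. Many of the 440 could not move that far. The other detection rules and 1 probe per gene kept the same probe and values, and leaving out 1 of 3 days cannot move a mean by its SD. Of the 44 genes, 2 moved by more without background correction, 1 with an offset of 50, 5 with median scaling and 1 with the series values. Only Tmbim1 changed sign, in 2 values (-0.0452 with median scaling, -0.23 without day 0).

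For changes between days, 404 probes passed from day 0 to day 5 and 59 from day 2 to day 5. With no replicate block 124 and 5 passed, without background correction 154 and 2, with detection on both arrays of 1 day 639 and 121, with no detection filter 0 and 0 (5432 and 4776 at an unadjusted p under 0.05 by limma) and with the series values 77 and 0 (2170 at an unadjusted p under 0.05 for the latter). With trended and robust shrinkage 147 passed from day 2 to day 5. From day 0 to day 2, 3 passed with an offset of 50 and 3 with that shrinkage. Leaving out single arrays gave 69 to 958 probes from day 0 to day 5, 0 to 757 from day 2 to day 5 and 0 to 275 from day 0 to day 2, where a lone array of a day is assumed to vary like the others. The highest counts came without the day 0 array of clone 5 (958, 757 and 275) and, for day 2 to day 5, also without that of clone 7 (757). Without either day 2 array 203 and 0 passed for the first pair of comparisons, without the day 5 array of clone 7 69 and 0, and without that of clone 5 261 and 148. From day 0 to day 2, 19 passed without the day 0 array of clone 7 and 4 without either day 5 array. The fits with and without the replicate block called 0 listed probes. Listed probes passing ranged from 0 to 1 on leaving out single arrays for day 2 and day 5 against day 0, where without the day 0 array of clone 5 a probe of Hspd1 passed, and were 0 otherwise. All 288 values of the named genes between days kept their sign, and none passed with all 6 arrays fitted. No replicate block, the detection rules, 1 probe per gene and the shrinkage leave the size of these changes as it is. Their sign was thus fixed in those settings, and also where the array left out belonged to neither day compared. Low signal limits what the probes of class 1 can show.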
